A study of Mus musculus with 6 samples.

Results

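The genes described here are 40 named members of the DNA damage response and DNA repair, taken from a list of gene symbols. Each member was represented by 1 probe set, that with a single gene symbol and the highest mean over the arrays, and 39 of the 40 had a value, out of 19938 genes tested. Xrcc2 was not analysed here. Messenger RNA had been measured on 6 Affymetrix mouse Gene 1.0 ST arrays, 3 of control cells and 3 of cells given valproic acid (VPA), an antiepileptic fatty acid that inhibits class I histone deacetylases. The titles and design text call the cells murine prostate cancer cells, and the samples of each group are described as biological replicates. The cell line, any engineered allele, the dose, the duration and the age and origin of the cells were not stated in those labels. The strain field reads 129SV for the control samples and Stra8-EGFP/Rosa26 for the VPA samples, and the cell type field reads differentiated stem cells for the former and undifferentiated stem cells for the latter. The groups below carry the names in the titles, so the effects of strain, cell state and treatment, as labelled, cannot be told apart.

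Cells answer a break or a damaged base in DNA with sensor complexes, signalling kinases and a set of repair routes. Double-strand breaks are rejoined directly by end joining or copied from the sister chromatid by homologous recombination. Fanconi anaemia proteins deal with crosslinks between strands, and mismatch, nucleotide excision and base excision repair remove wrong pairs, bulky lesions and small altered bases. Histone acetylation is part of the chromatin response at breaks. The transcripts of many recombination and replication-linked repair genes are most abundant in dividing cells.

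The labelled tissue was checked against marker genes. Array medians over all probe sets lay between 7.15 and 7.18 on the log2 scale. Of 9 measured markers of prostate epithelium, 7 lay below the array median on all 6 arrays. Among them were the keratin gene Krt18, the adhesion genes Epcam and Cdh1 and the basal marker Trp63. The probasin gene Pbsn was between 3.41 and 3.76, below the lower quartile on every array. The keratin gene Krt8, at 7.25 to 7.99, and Hoxb13, at 7.86 to 8.04, lay above the array median on all 6 arrays. Of 10 embryonic stem cell markers, 8 lay below the array median on all arrays, including Pou5f1 and Nanog, whereas Sox2 was between 10.98 and 11.71. Of 7 fibroblast markers 1 lay below the array median on all arrays, Lum at 4.04 to 4.24, and the highest was Dcn at 13.98 to 14.13. Brightness differs between probe sets and these values hold no detection call or zero, so they describe the arrays and do not name the cells.

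Few of the repair transcripts passed the test of a difference between the groups. At an adjusted p under 0.05 in limma's moderated test, fitted over all 19938 genes, 2 members rose with VPA, Radx and Chek2, 1 member fell, Nbn, and 36 did not pass. That is 3 of 39 members, or 7.69%, where 2.34% of all genes passed (1.71% higher and 0.632% lower with VPA). At an unadjusted p under 0.05 there were 6 members with higher and 3 with lower values, 23.1% of the members against 18.1% of all genes, and the 3 VPA values did not overlap the 3 control values in 11 members, 28.2% against 23.1% of all genes. The 2 latter shares lay near the background, and the first rests on 3 genes. The median log2 difference of the members was 0.05, that of all genes -0.035, and 27 of 39 members differed by less than 0.2. A lower share of cells with a transcript and less of it in each cell cannot be told apart in these bulk RNA samples.

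**Figure D1:**
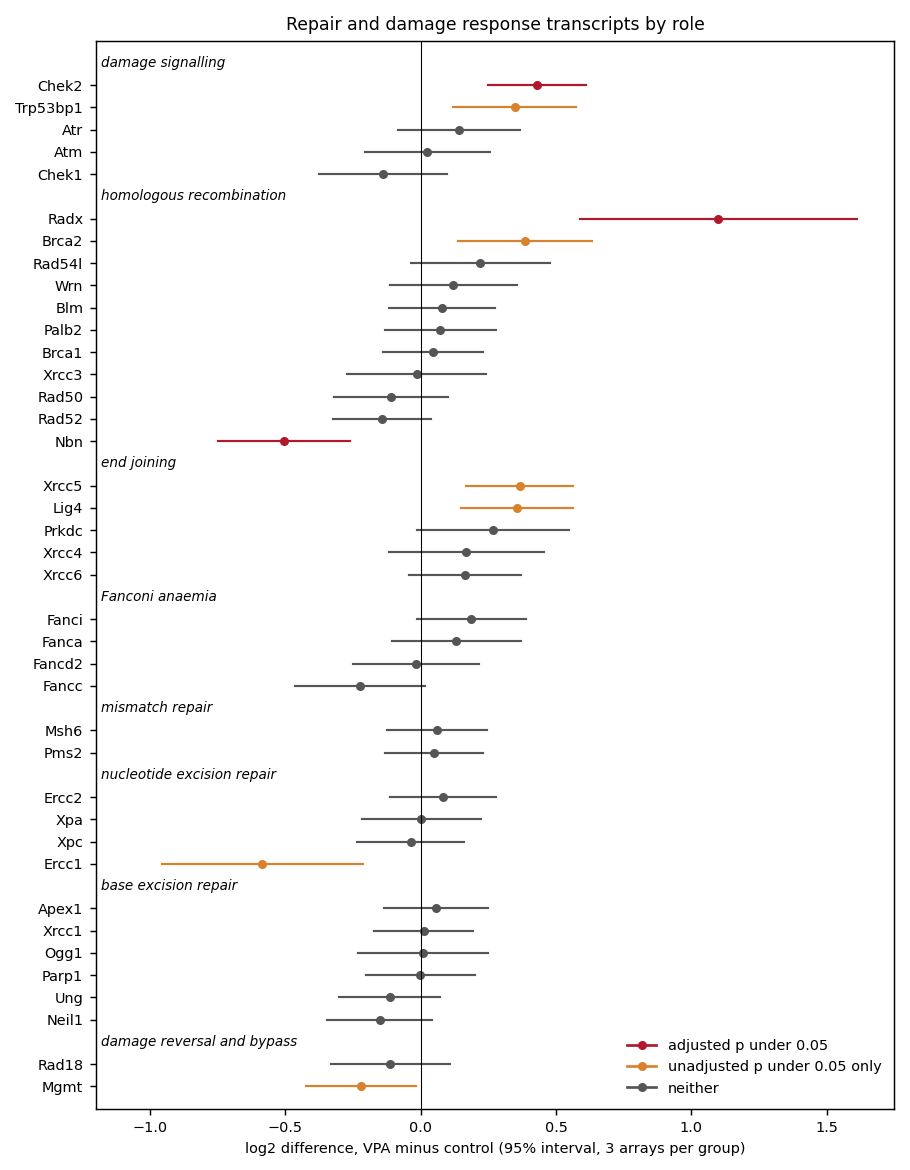
Log2 difference of VPA minus control for each of the 39 measured members, grouped by role, with points for the difference and bars for its 95% interval from limma (3 arrays per group). Radx at 1.10 and Chek2 at 0.43 lie to the right and Nbn at -0.51 to the left, while the 6 base excision repair genes lie between -0.15 and 0.06.

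In damage signalling, the apical kinases Atm and Atr phosphorylate the checkpoint kinases Chk2 and Chk1, which halt the cell cycle. Chek2, which encodes Chk2 (probe set 10524266), had log2 values of 10.89, 10.98 and 10.99 in control replicates 1, 2 and 3 and 11.42, 11.40 and 11.33 in VPA replicates 1, 2 and 3. The arrays of each group lay close together and the groups did not overlap. Its mean was 10.95 ± 0.051 (SD, n = 3) in control cells and 11.38 ± 0.043 (SD, n = 3) with VPA. The difference of 0.43 (SE 0.081, 95% interval 0.25 to 0.61) corresponds to 1.35-fold and passed limma's test at an adjusted p of 0.0304.

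Trp53bp1, whose product 53BP1 binds chromatin beside breaks and favours end joining, had values of 9.34, 9.50 and 9.28 in the controls and 9.84, 9.73 and 9.58 with VPA. All 3 VPA arrays were above all controls, with VPA replicate 3 and control replicate 2 near each other. The difference was 0.35 (95% interval 0.12 to 0.57), which did not pass (limma adjusted p = 0.113). The kinase genes upstream did not pass either: Atm differed by 0.02 (95% interval -0.21 to 0.26) and Atr by 0.14 (-0.08 to 0.37). Chek1, which encodes the other checkpoint kinase, differed by -0.14 (95% interval -0.38 to 0.10, adjusted p = 0.513), with overlapping groups. Of 5 signalling members, then, 1 rose and 4 did not pass. Among 19 other measured signalling genes none passed limma's test, 1 having an unadjusted p under 0.05. That gene was Timeless, of the replication fork protection complex, at -0.28 (95% interval -0.49 to -0.07, adjusted p = 0.155).

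Homologous recombination held the member with the largest difference. Radx encodes a single-strand DNA binding protein that acts at replication forks. Its values (probe set 10601993) were 6.20, 6.40 and 5.78 in the control arrays and 7.72, 7.21 and 6.76 in the VPA arrays. The groups did not overlap, but each was spread widely: VPA replicate 1 was the highest and VPA replicate 3 came nearest to the controls. The means were 6.13 ± 0.32 and 7.23 ± 0.48 (SD, n = 3 each), a difference of 1.10 (SE 0.229) that corresponds to 2.14-fold (95% interval 1.502 to 3.059). Radx passed at a limma adjusted p of 0.0426 and was the 1 member that differed by 1 or more. With a prior that follows intensity and is robust to outlying variances its adjusted p was 0.0548.

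Nbn, the member that fell, encodes nibrin, which joins Mre11 and Rad50 in the MRN complex that senses breaks and recruits Atm. The probe set 10503431 gave 9.75, 9.51 and 9.84 in the controls and 9.19, 9.08 and 9.31 with VPA. Every VPA array lay below every control, and replicate 2 was the lowest in each group. The means were 9.70 ± 0.17 and 9.19 ± 0.12 (SD, n = 3 each). Nbn fell by 0.51 on the log2 scale (SE 0.109, 95% interval -0.75 to -0.26, limma adjusted p = 0.0484). Nbn was the 1 member with a second probe set (10511692), which differed by -0.13 (SE 0.0882), and with the mean of both the difference was -0.32 and did not pass (adjusted p = 0.12). Its partners in the complex differed less: Rad50 was at -0.11 (95% interval -0.32 to 0.10) and Mre11a, named after its values were seen, at -0.15 (-0.32 to 0.03), with no overlap between the groups for Mre11a.

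Brca2, a central mediator of recombination, had values of 8.30, 8.45 and 8.44 in the controls and 8.97, 8.78 and 8.59 with VPA. The VPA arrays were all higher, VPA replicate 3 the least so, and the difference of 0.39 (95% interval 0.14 to 0.63) did not pass (limma adjusted p = 0.104). It passed in 1 of the 14 other settings, without VPA replicate 3, at 0.48 (adjusted p = 0.0458). With 1 array left out the difference lay between 0.29 and 0.48, with adjusted p from 0.0458 to 0.318. Palb2, which bridges Brca2 to Brca1, was at 0.07, and Brca1 itself at 0.05 (95% interval -0.14 to 0.23), with 6 values within 0.155 of each other. Bard1, the partner of Brca1 and named after its values were seen, was at -0.31 (95% interval -0.53 to -0.10, adjusted p = 0.122), and its other probe sets differed by -0.11 and -0.04.

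The other recombination members did not pass. Rad54l, a motor protein of strand invasion, differed by 0.22 (95% interval -0.04 to 0.48). Rad52, which anneals single strands, differed by -0.14 (-0.32 to 0.04), and all 3 of its VPA values, from 8.83 to 8.85, lay below the lowest control at 8.94. The RecQ helicase genes Wrn and Blm were at 0.12 and 0.08, and Xrcc3, which acts in recombination, was at -0.02. Across the 11 measured recombination members, then, 1 rose, 1 fell and 9 did not pass.

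**Figure D2:**
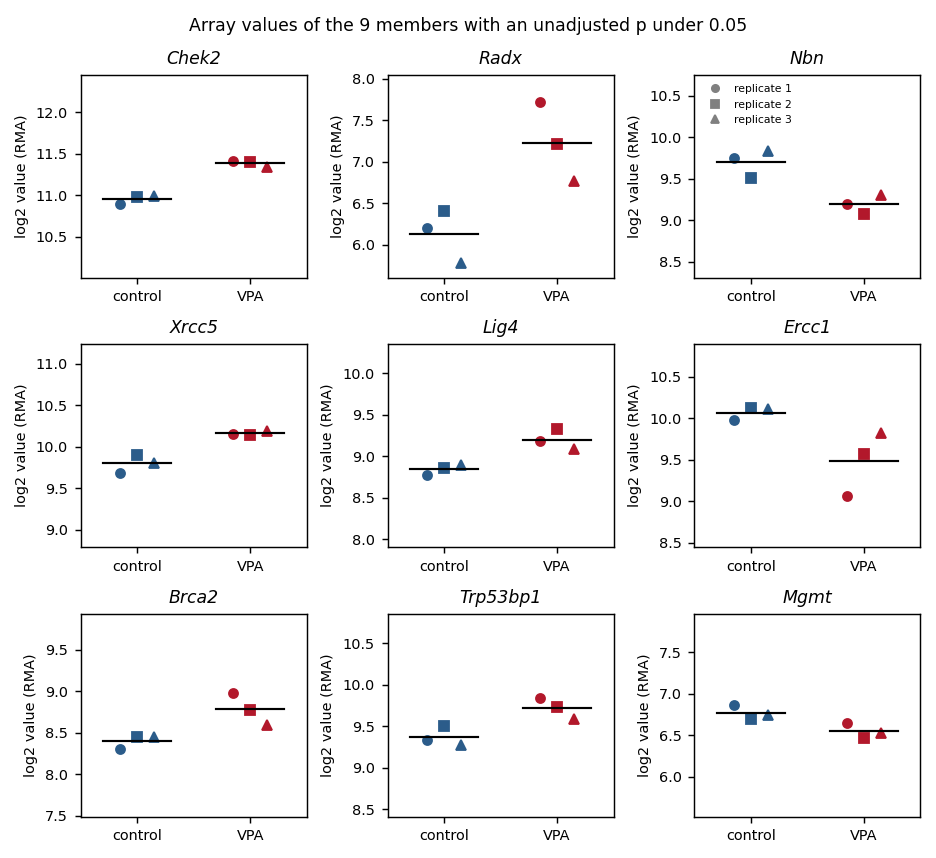
Log2 values of the 9 members with an unadjusted p under 0.05, with 1 panel per gene, the 3 control and 3 VPA arrays as points (the symbol gives the replicate number) and bars at the group means; every panel spans the same log2 range. The groups do not overlap in any of the 9, and Ercc1 and Radx have the most widely spread VPA values, from 9.07 to 9.82 and from 6.76 to 7.72.

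Of 24 other measured recombination genes, Dna2 fell and 23 did not pass, and 13 had positive and 11 negative differences. Dna2 is a nuclease and helicase that trims broken ends and flaps at forks. Its values were 9.56, 9.26 and 9.36 in the controls and 8.65, 8.54 and 8.89 with VPA, all 3 below the lowest control. It fell by 0.70 (SE 0.117, 95% interval -0.96 to -0.44, limma adjusted p = 0.0222). Rmi1, which works with Blm and was named after its values were seen, differed by -0.35 (adjusted p = 0.0644), and it passed in 4 of the 14 other settings. Of the 24 genes, 3 were higher and 5 lower with VPA without overlap of the groups, where 11.1% of all genes were higher and 12% lower.

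All 5 end joining members had higher means with VPA, and none passed the test. Over all genes 8254 of 19938 had a positive difference. Xrcc5 and Xrcc6 encode Ku80 and Ku70, the ring that grips broken ends. Xrcc5 was at 9.69, 9.91 and 9.81 in the controls and 10.16, 10.15 and 10.19 with VPA. The VPA arrays agreed closely and lay above all controls, and the difference of 0.37 (SE 0.088, 95% interval 0.17 to 0.56) missed the threshold (limma adjusted p = 0.0665). It passed in 4 of the 14 other settings, at adjusted p from 0.043 to 0.0465. Xrcc6 was at 0.16 (95% interval -0.04 to 0.37), and VPA replicate 3 at 10.70 lay among its controls.

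Lig4, the ligase that seals the joined ends, had values of 8.78, 8.86 and 8.89 in the controls and 9.18, 9.33 and 9.08 with VPA. The groups did not overlap, and the difference was 0.35 (95% interval 0.15 to 0.56, limma adjusted p = 0.0842). Xrcc4, its scaffold, was at 0.17 (95% interval -0.12 to 0.46), and its VPA replicate 3, at 9.80, lay within the controls. Prkdc, the catalytic subunit of the DNA-dependent kinase that Ku recruits, was at 0.27 (-0.01 to 0.55). Median values of the 5 end joining members, relative to the mean of the 6 arrays, were -0.21, -0.05 and -0.17 in control replicates 1, 2 and 3 and 0.16, 0.18 and -0.04 in the VPA replicates. Control replicate 2 and VPA replicate 3 thus lay side by side.

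Of 6 other measured end joining genes, Aplf rose and 5 did not pass. Aplf encodes a histone chaperone that binds Ku and Xrcc4 at breaks. It had values of 8.35, 8.44 and 8.28 in the controls and 9.26, 9.17 and 8.88 with VPA, with no overlap. It rose 1.68-fold (log2 0.75, SE 0.111, limma adjusted p = 0.015). The 6 genes as a group had a median difference of -0.01, with 3 positive and 3 negative.

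**Figure D3:**
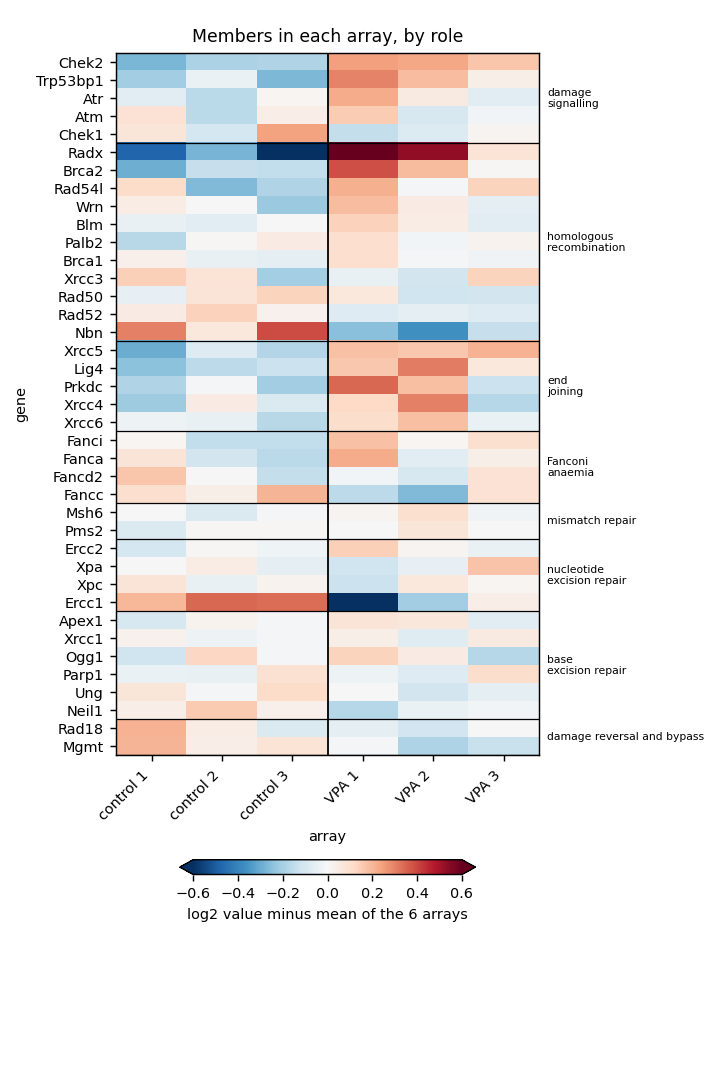
Log2 value minus the mean of the 6 arrays for each of the 39 members (rows, grouped by role) in each array (columns, control left and VPA right of the line); red is above and blue below the mean, and colours saturate at 0.6. End joining genes are mostly blue in the control arrays and red in VPA replicates 1 and 2, with VPA replicate 3 paler, whereas most base excision and mismatch repair rows are pale throughout.

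The Fanconi anaemia members did not pass. Fanci and Fancd2 form the clamp that is ubiquitinated at crosslinks, and Fanca and Fancc belong to the core ligase complex. Fancc, with the smallest p of the 4, was at 7.41, 7.34 and 7.51 in the controls and 7.15, 7.05 and 7.40 with VPA. Its VPA replicate 3 lay among the controls, and the difference was -0.22 (95% interval -0.46 to 0.02, limma adjusted p = 0.309). Fanci was at 0.19 (-0.01 to 0.39), Fanca at 0.13 (-0.11 to 0.37) and Fancd2 at -0.02 (-0.25 to 0.21). None of 12 other Fanconi genes passed limma's test, and 1 had an unadjusted p under 0.05, Ube2t, the conjugating enzyme for that clamp, at 0.35 (adjusted p = 0.122).

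Nucleotide excision repair was led by a member with unequal VPA arrays. Ercc1 forms with Xpf, the product of Ercc4, the nuclease that cuts 5' of a lesion. Ercc1 was at 9.98, 10.12 and 10.11 in the controls and 9.07, 9.57 and 9.82 with VPA. All VPA values were lower, but they spread over a wider range than either group of any other member, the VPA group of Radx excepted, and VPA replicate 3 lay close to the controls. The difference of -0.58 (SE 0.165, 95% interval -0.96 to -0.21) did not pass (limma adjusted p = 0.103). It passed in 2 of the 14 other settings, 1 of them without VPA replicate 3, at -0.75 (adjusted p = 0.0261). With 1 array left out the difference lay between -0.75 and -0.38, with adjusted p from 0.0261 to 0.245. Ercc4, named after its values were seen, was at -0.25 (95% interval -0.44 to -0.06, adjusted p = 0.16), with no overlap.

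The lesion sensor gene Xpc, the scaffold gene Xpa and the helicase gene Ercc2 differed by -0.04, 0.0021 and 0.08, and their intervals lay between -0.23 and 0.28. Of 15 other genes of this route, Ddb2 rose and 14 did not pass. At an unadjusted p under 0.05, 3 of the 15 were higher with VPA and 1, Ercc4, was lower. Over all genes 9.82% were higher and 8.3% lower at that threshold. Ddb2 recognises ultraviolet lesions and hands them to Xpc. It was at 8.11, 8.31 and 8.03 in the controls and 8.74, 8.85 and 8.66 with VPA, and rose 1.52-fold (log2 0.60, SE 0.101, limma adjusted p = 0.0222).

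The median size of the differences was 0.05 for the 2 mismatch repair members and 0.03 for the 6 base excision repair members, against 0.116 over all genes. Msh6, which binds mismatches, was at 0.06 (95% interval -0.12 to 0.24), and Pms2, which nicks the strand to be corrected, at 0.05 (-0.13 to 0.23). Msh6 values were 10.09, 10.00 and 10.08 in the controls and 10.10, 10.18 and 10.06 with VPA. None of 3 other measured mismatch genes passed, and Pms1 had an unadjusted p under 0.05, at 0.28 (limma adjusted p = 0.17).

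In base excision repair the glycosylases Ogg1, Ung and Neil1 remove oxidised or uracil bases, Apex1 cuts the abasic site, and Parp1 and Xrcc1 serve the resulting nick. Their differences were 0.01 for Ogg1, -0.11 for Ung, -0.15 for Neil1, 0.06 for Apex1, -0.0026 for Parp1 and 0.01 for Xrcc1. Neil1, with the smallest p of the 6, was at 7.24, 7.35 and 7.23 in the controls and 7.02, 7.15 and 7.18 with VPA, without overlap (95% interval -0.35 to 0.04, limma adjusted p = 0.391). For Parp1, the enzyme that PARP inhibitors block, the interval was -0.20 to 0.20, and for Xrcc1 -0.17 to 0.19. With 3 arrays per group, differences within these bounds were not excluded. The bounds are not detection limits, as Trp53bp1 at 0.35 did not pass (limma adjusted p = 0.113). None of 17 other base excision genes passed limma's test, and 2 had an unadjusted p under 0.05. The glycosylase gene Mbd4 was at 0.21 (adjusted p = 0.261) and the flap nuclease gene Fen1, named after its values were seen, at -0.32 (adjusted p = 0.265). Of the 17 genes 12 had negative differences, with a median of -0.10 and a median size of 0.185.

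The remaining members act by reversing damage or by tolerating it. Mgmt, which takes alkyl groups off guanine, was at 6.86, 6.70 and 6.74 in the controls and 6.65, 6.47 and 6.52 with VPA. The VPA values were lower without overlap, and the difference was -0.22 (95% interval -0.42 to -0.02, limma adjusted p = 0.239). Rad18, the ligase that marks PCNA for bypass synthesis, was at -0.11 (-0.33 to 0.11). None of 12 other genes of bypass and reversal passed, and 2 had an unadjusted p under 0.05, of which the bypass polymerase gene Polk, at 0.38 (adjusted p = 0.173), had the smaller.

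Over all 108 measured other genes of these routes, 2 rose, 1 fell and 105 did not pass, which is 2.78% against 2.34% of all genes. Their median difference was 0.01. Of 19 measured proliferation genes (cyclin, Mcm and mitotic genes such as Mki67 and Top2a) none passed limma's test. At an unadjusted p under 0.05, 4 were lower with VPA, 21.1% against 8.3% of all genes. The median difference of the 19 genes was -0.18. After subtraction of each gene's mean over the 6 arrays, the medians of these genes were 0.15, 0.01 and 0.08 for the 3 controls in order of replicate number, against -0.17, -0.13 and 0.05 for VPA. Mki67 itself differed by 0.0003, while 16 of the 19 had negative and 3 positive differences, the lowest being -0.51 for Tk1 (limma adjusted p = 0.065). Among 5 neuronal markers Map2 and Syp rose, by 0.70 and 0.90 (limma adjusted p 0.0415 and 0.0456), and 3 did not pass, with Tubb3 at 0.45, Snap25 at 0.01 and Rbfox3 at -0.14. The mean log2 value of the list was 7.27 to 7.43 in the controls and 7.56 to 7.91 with VPA. All 10 embryonic stem cell markers had lower means in the samples titled VPA, which the cell type field calls undifferentiated. None of them passed limma's test, 4 had an unadjusted p under 0.05, the median difference was -0.19, and the mean log2 value was 6.48 to 6.67 in the controls and 6.25 to 6.44 with VPA. The part of proliferation or of these markers in the repair results was not tested.

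Promoters are shown for the members that rose and for the not-called members Xrcc5, Brca2 and Ercc1, so that their start regions can be compared. RefSeq windows of assembly GRCm38.p6, from 250 bases before to 50 after a start, were found for 33 of the 39 members, 37 windows in all, and Nbn, the member that fell, is named only. The 200 bases before the start are printed 5′ to 3′ on the strand of the gene, with capitals for letters that match a searched motif on either strand: the GC box GGGCGG in Radx (chrX:139480167-139480366, plus strand) and, as its complement CCGCCC, in Ercc1 (chr7:19344871-19345070, plus strand); the CCAAT box, as its complement ATTGG, in Chek2 (chr5:110839783-110839982, plus strand) and Xrcc5 (chr1:72307221-72307420, plus strand); and the cyclic AMP response element TGACGTCA in Brca2 (chr5:150522421-150522620, plus strand).
Radx: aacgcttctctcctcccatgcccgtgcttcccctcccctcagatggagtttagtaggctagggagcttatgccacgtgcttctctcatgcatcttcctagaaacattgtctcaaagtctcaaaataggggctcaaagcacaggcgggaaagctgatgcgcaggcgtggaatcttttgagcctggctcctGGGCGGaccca
Chek2: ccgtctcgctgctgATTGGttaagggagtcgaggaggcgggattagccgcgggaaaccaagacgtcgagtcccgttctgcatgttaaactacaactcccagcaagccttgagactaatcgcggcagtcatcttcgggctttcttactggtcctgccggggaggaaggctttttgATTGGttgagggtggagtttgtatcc
Xrcc5: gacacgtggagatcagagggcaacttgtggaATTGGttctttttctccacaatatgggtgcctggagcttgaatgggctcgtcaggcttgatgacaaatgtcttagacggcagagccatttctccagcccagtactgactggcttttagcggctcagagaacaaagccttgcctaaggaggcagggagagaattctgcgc
Brca2: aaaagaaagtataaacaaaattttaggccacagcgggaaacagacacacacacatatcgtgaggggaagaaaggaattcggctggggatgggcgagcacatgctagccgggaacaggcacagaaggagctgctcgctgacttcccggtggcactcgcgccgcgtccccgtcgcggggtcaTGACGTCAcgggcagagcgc
Ercc1: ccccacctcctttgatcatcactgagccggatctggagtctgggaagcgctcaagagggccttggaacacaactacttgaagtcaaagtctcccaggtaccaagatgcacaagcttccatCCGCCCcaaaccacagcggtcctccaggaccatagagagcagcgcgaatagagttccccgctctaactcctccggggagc

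The promoters of Radx and Chek2 shared none of the searched motifs. Both hold GCGGGAAA, which was not searched, and so does the printed promoter of Brca2, which was not called. The share of member windows or of all windows with these letters was not counted. The GC box of Radx ended 6 bases before the start, and Chek2 had a CCAAT box in each of 2 places, beginning 186 and 26 bases before it. Over all 37 member windows, 64.9% held a GC box and 51.4% a CCAAT box, against 35.7% and 37.4% of the 32851 windows in the table, which include those of non-coding and predicted genes. The median number of CG dinucleotides was 22 in member windows and 7 in all windows. The E2F letters TTTCGCGC or TTTGGCGC, searched on both strands, were in no member window, against 0.813% of all windows. Other spellings of the E2F site were not searched, so the absence of E2F sites from the member windows was not tested. Read on the other strand, GCGGGAAA differs from TTTCGCGC by 1 base. The cell cycle element TTTGAA, searched on both strands, was in no member window, against 17.9% of all windows. The cyclic AMP element was in 1 member window, that of Brca2, against 1.79% of all windows. Of the searched motifs none overlaps another in the printed sequences. A match describes letters and is not a binding site, and no window was measured here.

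The calls of the 3 members depended on which arrays were included. All 3 ended without control replicate 1 or 3 or without VPA replicate 1 or 2, in that order with limma adjusted p of 0.133, 0.0872, 0.121 and 0.118 for Chek2, 0.134, 0.129, 0.118 and 0.136 for Radx and 0.174, 0.154, 0.155 and 0.177 for Nbn. Without control replicate 2 or VPA replicate 3 all 3 passed, at 0.0489 and 0.0354 for Chek2, 0.041 and 0.0113 for Radx and 0.0265 and 0.0385 for Nbn. The differences themselves stayed between 0.40 and 0.45 for Chek2, 0.86 and 1.33 for Radx and -0.60 and -0.44 for Nbn. Aplf, Ddb2 and Dna2 lost their calls without the same 4 arrays, at adjusted p from 0.0596 to 0.0703, 0.079 to 0.0989 and 0.0697 to 0.0934. Over all genes the number that passed was 467, and it was 20, 71, 66 and 72 without those 4 arrays. When the test covered all probe sets, named or not, no member passed, at 0.151 for Chek2, 0.209 for Radx and 0.204 for Nbn.

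**Figure D4:**
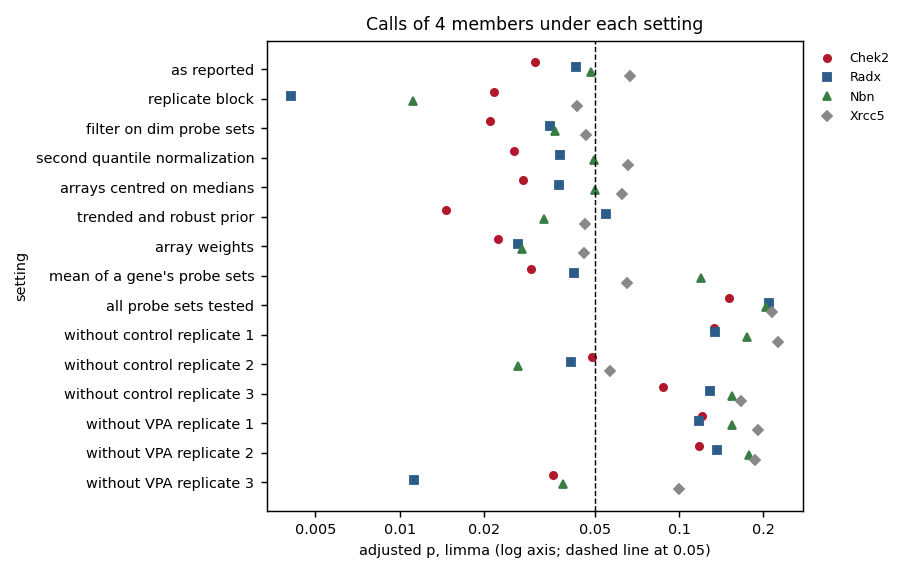
Adjusted p of limma (log axis, dashed line at 0.05) for Chek2, Radx, Nbn and Xrcc5 as reported and under each of 14 other settings, 1 row per setting. Chek2 lies left of the line in 10 of the 15 rows, Radx and Nbn in 9 and Xrcc5 in 4.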

How the data were processed

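Labelled RNA of 6 samples, 3 control and 3 VPA, was hybridised to Affymetrix mouse Gene 1.0 ST arrays, and samples were grouped by title. The deposited values are log2 signals; the submitters' processing notes name RMA and Affymetrix Expression Console as the authors' tools. RMA gives no detection call, and array medians over all probe sets still ranged from 7.146 to 7.178. Versions of the authors' tools and a genome build: not given in the sources used here.

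Of 35556 probe sets, 21789 had exactly 1 symbol, 1621 had several (naming no gene) and 12146 were not listed in the platform annotation. The probe set with the highest mean stood for each gene. Entrez identifiers matched 21698 probe sets in a RefSeq table of GRCm38.p6 and changed 0 symbols. Of 118 other pathway genes 108 matched.

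VPA and control were compared with lmFit and eBayes of limma 3.58.1 (R 4.3.3), group being the sole term of a two-sided test, with Benjamini-Hochberg adjustment over 19938 genes, and the test was tested on simulated data. The median standard error was 0.101, and the number of arrays limits the precision. Array values are given for members with an unadjusted p under 0.05 and for the smallest p of each role; other pathway genes are named when called or smallest in p within a role under 0.05. Alternatives were a replicate block, a filter (log2 of at least 6 in 3 arrays), a second quantile normalization, median centring, a trended robust prior, array weights, averaged probe sets, all probe sets, a stricter threshold of 0.01 and each array left out. The members, lists, roles and motifs were chosen with earlier results of these data known.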

Additional observations from a re-analysis of the deposited data

How the results depend on the processing

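Of 14 other settings 9 can move the differences of most members and 1 that of Nbn alone, and the other 4 leave them as they are by construction. In the former 31 of 39 members kept the sign of their difference, and 8 members with differences near 0 changed it. A second quantile normalization turned Xpa to -0.0262, Xrcc1 to -0.0191 and Ogg1 to -0.0218, median centring turned Parp1 to 0.0093, and array weights turned Atm to -0.00388 and Xrcc1 to -0.000503. Leaving out 1 array gave ranges of -0.0501 to 0.0798 for Atm, -0.0942 to 0.0625 for Fancd2, -0.0573 to 0.0944 for Ogg1, -0.0549 to 0.0426 for Parp1, -0.0834 to 0.0628 for Xpa, -0.0767 to 0.0174 for Xpc, -0.0132 to 0.0489 for Xrcc1 and -0.122 to 0.0525 for Xrcc3. The count of members that rose was 0 to 3 without 1 array and of members that fell 0 to 2, with 0 to 2 and 0 to 1 for the other pathway genes and 20 to 815 over all genes. When all probe sets of a gene were averaged, 0 members fell. With every probe set tested, 0 members and 0 pathway genes passed in either direction, and 2 over all genes. At an adjusted p under 0.01, 0 members and 0 pathway genes passed, and 43 over all genes. Array weights gave 714 over all genes. Of the other pathway genes 2 fell with the filter on dim probe sets, the second quantile normalization and the trended and robust prior. The median difference of the members stayed between 0.02 and 0.08 over all settings. The shared replicate numbers were not taken to pair the samples: deviations of same-numbered arrays correlated at 0.0841, 0.451 and 0.284, 1 of them under 0.1, and those of arrays with different numbers at -0.429 to 0.20, and control replicate 1 correlated best with VPA replicate 3. With the replicate number as a block 2 members fell (Nbn and Ercc1), 3 rose (Radx, Chek2 and Xrcc5), 2 other pathway genes fell, and 1199 genes passed over all. Low values have no detection call, so dim members such as Radx have no measured floor. The cause of these changes was not tested.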
